A study of Mus musculus with 4 samples.

Results

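The genes described here are the numbered zinc finger protein genes of the mouse, those whose symbol is *Zfp* followed by a number and at most 1 letter, which were counted by RNA-seq in primary mouse embryonic fibroblasts (MEFs) with and without *Phf2*. They were chosen on measured values: a gene was included if its mean raw count over the 4 libraries was 200 or more. This gave 141 genes of 360 with such a symbol, in a table of 24391 gene symbols. The other 219 numbered *Zfp* genes lay under the limit. Just inside it were *Zfp28* with a mean count of 209.75, *Zfp956* with 211.5 and *Zfp280d* with 212.25. Just outside it were *Zfp426* with 197.5, *Zfp647* with 196.75 and *Zfp235* with 195.5. The limit fixes the level of the genes, so their levels are given as a description. The rule itself does not use the difference between the groups, but the genes were chosen with earlier results of these data known.

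The study asked what the histone reader Phf2 does in quiescent MEFs, and the RNA-seq compared 2 WT with 2 *Phf2* KO libraries. MEFs are connective tissue cells grown from the embryo, here taken at E13.5, and were held in a resting state at confluence. All 4 libraries came from cells labelled Phf2 flox/flox, ERCre/+, in which the recombinase CreERT2 is expressed from the *Rosa26* locus. A Tamoxifen label is given only to *Phf2* KO, and the descriptions of the WT samples read noTamox. The treatment text, which gives 0.5 µM 4-hydroxytamoxifen (4-OHT) for 7 days in Opti-MEM with 2% charcoal-treated FBS, is worded alike for all 4, and no library had recombination without the drug, so that loss of Phf2, activity of Cre and 4-OHT cannot be told apart. The study calls the 2 replicates of a group biological, and the sex genes given below differ between replicates 1 and 2, so these come from different embryos. Whether the same number marks the same embryo or culture in both groups is not stated, and p-values measure the spread between these libraries.

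Zinc finger proteins of the C2H2 type fold a short stretch of residues around a zinc ion that is held by a pair of cysteines and a pair of histidines, and rows of such fingers read DNA bases, RNA or other proteins. Many of those in tetrapods carry an N-terminal KRAB domain, which recruits the corepressor Trim28 and with it the H3K9 methyltransferase Setdb1, so that transposable elements and imprinted regions are kept silent. Others act at promoters, in differentiation of mesenchymal cells, or in the cytoplasm on mRNA and the ribosome, and some numbered *Zfp* symbols belong to zinc fingers of other types. Phf2 carries a PHD finger that binds H3K4me3 and a Jumonji domain related to histone demethylases.

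The finger and the KRAB box are shown as they are written in the genome, since they define the group. The coding strand of the first match to the finger pattern, whose spacing is given below, is shown for 5 genes. These are described below for their *Phf2* KO values (chosen after those values were seen). Written 5′ to 3′ on mm9, the matches have the codons of the 2 cysteines and 2 histidines in capitals. They lie in coding exons at chr7:4946309-4946371 (minus strand) in *Zfp579*, chr17:37146624-37146686 (plus) in *Zfp57*, chr4:55020450-55020515 (plus) in *Zfp462*, chr14:52629095-52629157 (minus) in *Zfp219* and chr7:87226857-87226919 (plus) in *Zfp710*.
Zfp579: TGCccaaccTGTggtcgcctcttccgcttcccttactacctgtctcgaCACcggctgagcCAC
Zfp57: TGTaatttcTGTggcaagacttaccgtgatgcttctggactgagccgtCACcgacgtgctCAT
Zfp462: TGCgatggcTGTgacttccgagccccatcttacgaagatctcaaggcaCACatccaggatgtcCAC
Zfp219: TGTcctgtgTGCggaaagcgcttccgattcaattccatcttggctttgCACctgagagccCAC
Zfp710: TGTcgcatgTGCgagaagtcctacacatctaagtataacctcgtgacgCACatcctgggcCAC

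The second set holds the start of the KRAB A box, the part that contacts Trim28, in 4 genes of the list on silencing of repeats and imprints, with the codons of a phenylalanine, an aspartate and a tryptophan of the searched pattern in capitals. On mm9 these are at chr7:30782781-30782819 (plus) in *Zfp568*, chr9:122765893-122765931 (minus) in *Zfp445*, chr9:22039476-22039514 (plus) in *Zfp809* and chr8:108942983-108943021 (plus) in *Zfp90*.
Zfp568: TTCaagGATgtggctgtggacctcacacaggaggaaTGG
Zfp445: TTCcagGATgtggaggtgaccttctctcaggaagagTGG
Zfp809: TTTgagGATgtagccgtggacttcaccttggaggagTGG
Zfp90: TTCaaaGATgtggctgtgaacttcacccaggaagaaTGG

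Of the 141 genes, 139 were placed on mm9, and *Zfp319* and *Zfp664* were not. At least 1 C2H2 finger (2 to 4 residues between the cysteines, then 12, then 3 to 5 between the histidines) was found in the translated transcript of 132 of the 139, with a median of 8 fingers and at most 36, in *Zfp142*. *Zfp330*, *Zfp36*, *Zfp365*, *Zfp503*, *Zfp703*, *Zfp839* and *Zfp950* held no match to this spacing. *Zfp36*, for one, has zinc fingers of the CCCH type. The linker TGEKP, which joins neighbouring fingers in DNA-binding arrays, followed a finger in 68 of the 139.

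The genes above the limit mostly held no match to the KRAB A box pattern and were spread over single and clustered sites. The KRAB A box pattern was present in 27 of 139 genes (19.4%), and in 116 of 209 (55.5%) of the numbered *Zfp* genes under the limit that had a translation. The pattern was sought in a single transcript model per gene, so a missing match does not show that a protein lacks the domain. At least 1 other numbered *Zfp* gene lay within 500000 bases of 71 of the 139 (51.1%), and of 157 of 210 (74.8%) under the limit. Chromosome 7 held 38 of the 139. Since the limit is a limit on expression, these shares describe which numbered *Zfp* genes were counted well in MEFs, and no test of them was made. Among protein-coding transcripts, 106 of the 139 shared no 50-base word with a transcript of another gene. More than 5% was shared only in *Zfp652* (11.4%), *Zfp866* (6.85%), *Zfp869* (9.35%) and *Zfp91* (12.6%), whose values are less certain. Copies outside these transcripts, such as pseudogenes, were not searched.

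Levels were compared between genes only as normalized CPM, the share of a library's counts scaled to a fixed total, per kilobase of exon (CPM per kb). In WT the 139 genes ranged from 0.945 in *Zfp111* to 35.2 in *Zfp771*, with a median of 6.35. The genes with a KRAB match had a median of 3.92 CPM per kb and at most 11.9, and those without a match a median of 7.17. After *Zfp771* the highest levels per length were 31.0 in *Zfp219*, 30.9 in *Zfp521*, 29.8 in *Zfp651*, 28.8 in *Zfp385a* and 27.4 in *Zfp503*. These neighbours lay closer to each other than the WT libraries of *Zfp219* did, which held 81.2 and 112.2 CPM, so their order is not fixed. The 5 genes with the most counts, *Zfp106*, *Zfp651*, *Zfp521*, *Zfp503* and *Zfp516*, all lack a KRAB match.

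**Figure D1:**
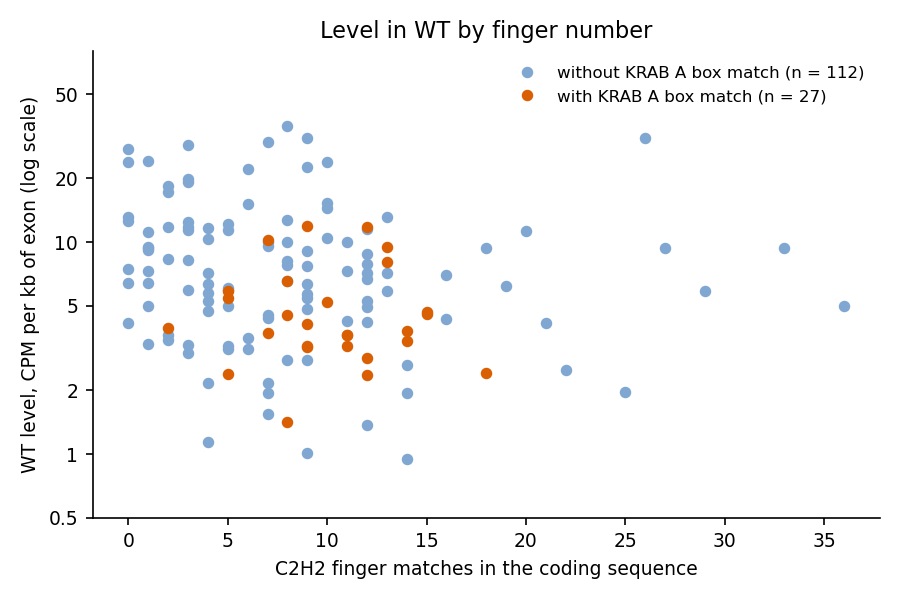
Each point is 1 of the 139 placed genes, at its number of C2H2 finger matches (x axis) and its mean level in the 2 WT libraries in CPM per kb of exon (y axis, log scale), with or without a match to the KRAB A box. The 27 genes with a match (orange) reach at most 11.9 CPM per kb, while genes without a match (blue) reach 35.2.

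The libraries held 21094743 to 26094268 counts, of which the 141 genes took 0.498% to 0.532%. *Phf2* itself was counted at 134.6 and 141.8 CPM in WT and at 70.2 and 89.8 CPM in *Phf2* KO, or 57.9% of the WT mean, so that transcripts of the gene remained. Counts over the whole gene do not show whether the floxed part was lost. For *Phf2* KO MEFs the paper reports depletion of the protein by immunoblot and the absence of nearly all Phf2 ChIP-seq peaks. The log2 difference was -0.79 (SE 0.14), with an adjusted p of 0.999 without and 7.7e-19 with the replicate block described below (quasi-likelihood test of edgeR, Benjamini-Hochberg). All 10 fibroblast markers looked at were present, summing to 76323 and 82088 CPM in WT 1 and WT 2 and to 71548 and 69561 CPM in *Phf2* KO 1 and *Phf2* KO 2, so that both *Phf2* KO sums lay below WT. Of the 10, 7 had a log2 fold change below 0, 5 had both *Phf2* KO values below both WT values, and 1, *Lum*, was called lower with the block. Over all genes tested, both *Phf2* KO values lay below both WT values in 18%, and 5.2% were called lower with the block. The muscle marker *Des* and the endothelial marker *Kdr* were also called lower with the block. *Des* stood at 32.0 and 14.1 CPM against 53.1 and 23.5 CPM in WT, and *Kdr* at 12.5 and 5.62 CPM against 18.3 and 8.94 CPM. Of 5 muscle markers only *Des* entered the fit. Of 5 endothelial markers 2 did, and 1 of these lay above 0. Of 5 neural markers 3 did, all 3 above 0, and 1 was called higher with the block, as were 5.77% of all genes tested. Of 5 epithelial markers 1 did, below 0 and not called. The part of these markers in the values of the *Zfp* genes was not tested. The replicate numbers differ in sex: *Xist* was counted 10042 times in WT 1 and 8336 times in *Phf2* KO 1, but 3 and 12 times in WT 2 and *Phf2* KO 2, and *Ddx3y* the other way (6 and 10 against 1271 and 1295). They also differ in macrophage markers, of which 13 were in the table and none was at 0: these summed to 4019 and 4589 CPM in WT 1 and *Phf2* KO 1, and to 883 and 1390 CPM in WT 2 and *Phf2* KO 2. In such bulk samples, fewer cells of a type and less RNA per cell cannot be told apart.

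As a group, the numbered *Zfp* genes had differences between *Phf2* KO and WT that centred on 0. The 141 genes together summed to 4916 and 5232 CPM in WT 1 and WT 2, and to 5074 and 5272 CPM in *Phf2* KO 1 and *Phf2* KO 2, so the groups overlapped. Between libraries of the same replicate number, the *Phf2* KO sum was the higher. The median log2 fold change was 0.014, beside 0.0054 over all 13668 genes tested and 0.0097 over the 9233 tested genes with the same minimum count. It lay above 0 in 74 genes and below 0 in 67. All 141 passed the filter on low counts, which the limit of 200 made likely.

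The differences were also small for single genes. The median size of the log2 fold change was 0.091 in the numbered *Zfp* genes, 0.12 over all genes tested and 0.097 over those with the same minimum count. A difference beyond 0.3 was seen in 4 of 141 (2.84%), against 17.95% of all genes tested and 8.29% of those with the same minimum count. No numbered *Zfp* gene above the limit lay beyond 1, against 1.17% and 0.217%. The extremes were *Zfp365* at -0.30 and *Zfp579* at 0.52.

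**Figure D2:**
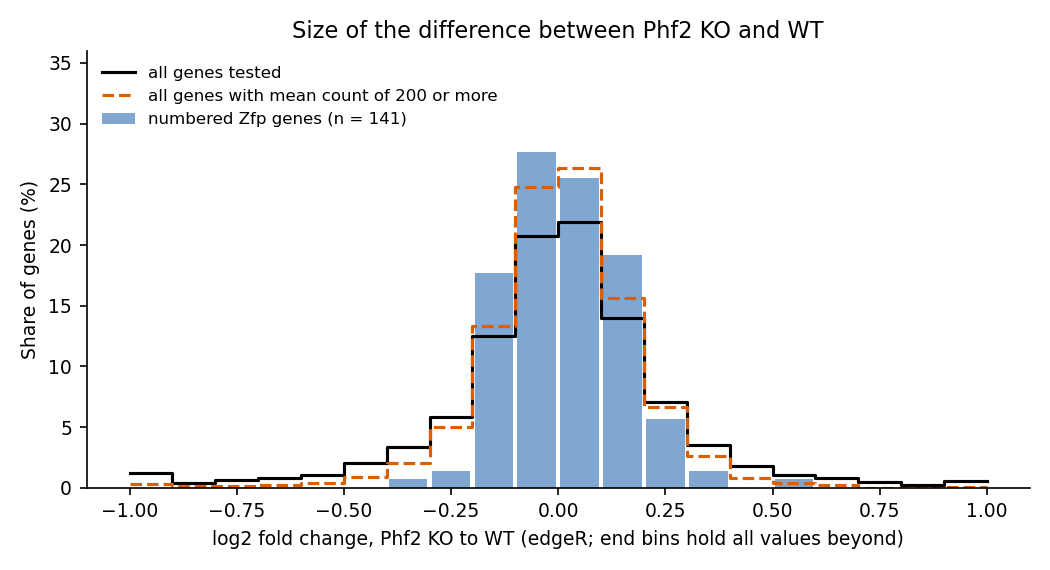
Bars give the share (%) of the 141 numbered Zfp genes in each bin of 0.1 of the log2 fold change of Phf2 KO to WT, the solid line that of all 13668 genes tested, and the dashed line that of the 9233 genes with a mean count of 200 or more. The numbered Zfp genes centre on 0, and 4 of them lie beyond 0.3 on either side.

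None of the 141 genes was called in either direction at a Benjamini-Hochberg adjusted p under 0.1 by the quasi-likelihood test of edgeR. Over all genes tested 0% were called higher and 0.00732% lower, the latter being *Dkk2*, a Wnt antagonist named here after its value was seen. At an unadjusted p under 0.05, 1 numbered *Zfp* gene was higher (*Zfp462*) and 0 were lower, by edgeR, DESeq2 and limma-voom alike, while edgeR gave 1.54% higher and 2.67% lower over all genes. The adjusted p was 0.999 or above in each of the 141.

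What the libraries can show is given by the intervals. The SE of the log2 fold change ran from 0.073 to 0.32, with a median of 0.12. The 95% interval lay within 1 log2 unit of 0 in 139 of the 141 genes, within 0.5 in 101, and within 0.3 in 14. A change of 2-fold is therefore outside the interval for nearly all of these genes, whereas a change of 0.3 is inside it for most of them.

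A count of genes whose groups do not overlap gave a similar result. Both *Phf2* KO libraries lay above both WT libraries in 17 of 141 genes (12.1%, against 15.5% of all genes tested), and below them in 22 (15.6%, against 18%). Among the 17 were *Zfp36*, *Zfp462*, *Zfp503*, *Zfp568*, *Zfp579*, *Zfp592*, *Zfp821* and *Zfp90*. Among the 22 were *Zfp106*, *Zfp148*, *Zfp365*, *Zfp384*, *Zfp507*, *Zfp608* and *Zfp9*. Neither share lay above its background.

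Much of the spread within a group followed the replicate number. Replicate 2 lay above replicate 1 in both groups in 69 genes and below it in both in 21. The mean difference between the numbers was larger than the difference between the groups in 75 of 141. *Zfp703*, a repressor of the NET family, is an example, at 26.9 and 15.3 CPM in WT 1 and WT 2 and 26.3 and 19.1 CPM in *Phf2* KO 1 and *Phf2* KO 2, with log2 ratios of replicate 2 to 1 of -0.82 and -0.46. A gap over 0.3 in the same direction in both groups was present in *Zfp57*, *Zfp579*, *Zfp653*, *Zfp691*, *Zfp692*, *Zfp703* and *Zfp710*. The differences between replicates 2 and 1 in WT and in *Phf2* KO were correlated across genes, with r of 0.77 over all genes tested and 0.47 over the 141, which is a description over genes that share their libraries. The ratios within each number, and a fit with the number as a block, are therefore given beside the pooled result.

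Within the numbers, 45 genes were higher in *Phf2* KO in both, 34 lower in both, and 62 moved in opposite directions. Only *Zfp57*, *Zfp579* and *Zfp692* were higher by more than 0.3 on the log2 scale in both (3 of 141, or 2.13%, against 4.17% of all genes tested), and 0 were lower by more than 0.3 in both, against 5.16%. These 2 background shares include genes of low count. For the pooled difference, the share beyond 0.3 was 17.95% of all genes but 8.29% of those with the same minimum count.

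With the replicate block, edgeR called 6 numbered *Zfp* genes higher in *Phf2* KO, *Zfp579*, *Zfp57*, *Zfp692*, *Zfp462*, *Zfp710* and *Zfp219*, and 1 lower, *Zfp365*. These are 4.26% and 0.709% of the 141, while 5.77% and 5.2% of all genes tested were called higher and lower and neither share of the group lay above that. That fit leaves 1 residual degree of freedom per gene. DESeq2 with the block gave an adjusted p to 103 of the 141 and called 1 of them higher, *Zfp579*, and 0 lower, against 2.42% and 1.58% of the genes to which it gave one. At an unadjusted p under 0.05 that fit had 5 numbered *Zfp* genes higher and 0 lower, and the share over all genes at that limit is not given here. The summed macrophage markers were higher in *Phf2* KO within both numbers, as given above, and 8 of their 13 were called higher with the block; their part in the values of the 7 genes was not tested.

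**Figure D3:**
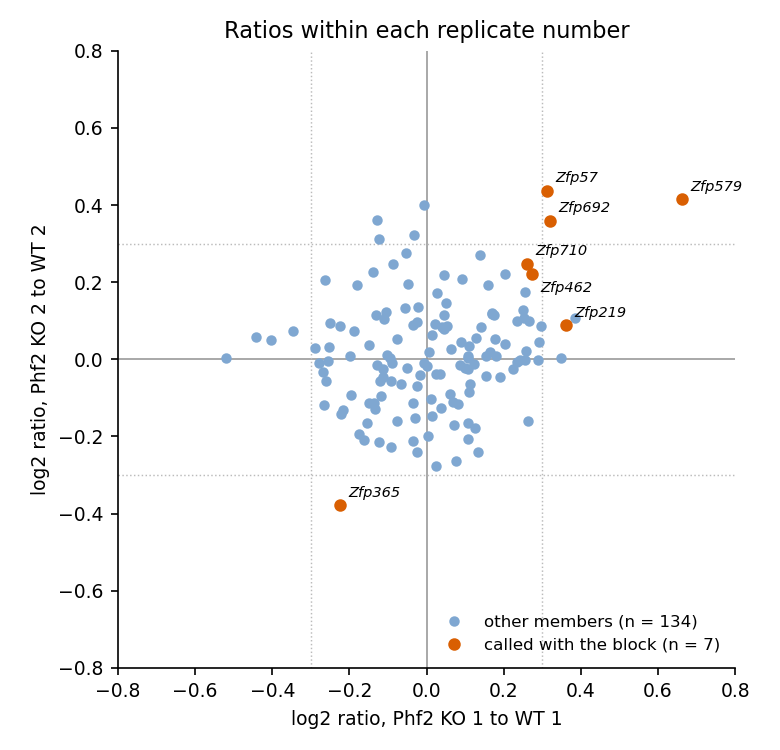
Each point is 1 of the 141 numbered Zfp genes, with the log2 ratio of normalized CPM of Phf2 KO 1 to WT 1 on the x axis and of Phf2 KO 2 to WT 2 on the y axis; orange points are the 7 genes called with the replicate block and dotted lines mark 0.3 either way. Most points lie around 0 in no common direction, and 3 labelled genes, Zfp57, Zfp579 and Zfp692, lie beyond 0.3 in both.

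*Zfp579* gave the largest difference of the group. It was measured at 25.3 and 39.4 CPM in WT 1 and WT 2 and at 40.0 and 52.5 CPM in *Phf2* KO 1 and *Phf2* KO 2. Both *Phf2* KO values lay above both WT values, though *Phf2* KO 1 by little. The group means were 32.3 ± 9.98 and 46.3 ± 8.83 CPM (SD, n = 2 each), and the log2 fold change was 0.52 (SE 0.26, 95% interval -0.18 to 1.21), with an adjusted p of 0.999 without the block and 1.2e-06 with it by edgeR. Within the numbers the log2 ratios were 0.66 and 0.41. The pooled value was 0.24 without WT 1, 0.31 without *Phf2* KO 2 and 0.86 without WT 2. The gene lies at chr7:4935085-4947760 on the minus strand, with 8 fingers, among other numbered *Zfp* genes.

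*Zfp57*, which with Trim28 protects the methylation of imprinted regions, was measured at 18.1 and 26.9 CPM in WT 1 and WT 2 and at 22.4 and 36.5 CPM in *Phf2* KO 1 and *Phf2* KO 2. The groups overlapped, since WT 2 exceeded *Phf2* KO 1, while *Phf2* KO was the higher within each number, by 0.31 and 0.44 on the log2 scale. The pooled log2 fold change was 0.39 (SE 0.31), and the adjusted p by edgeR was 0.999 without and 0.0055 with the block. The pooled value was -0.0038 without *Phf2* KO 2, 0.14 without WT 1, and 0.69 without either WT 2 or *Phf2* KO 1. Each of these fits leaves the replicate numbers unequal between the groups, so the gap between the numbers enters the value. The KRAB pattern was not found in the transcript model used, which says only that these letters are not in it.

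*Zfp692*, a repressor studied in glucose metabolism, followed the same course. It held 20.4 and 28.0 CPM in WT 1 and WT 2 and 25.5 and 35.9 CPM in *Phf2* KO 1 and *Phf2* KO 2, again with WT 2 above *Phf2* KO 1. Its log2 fold change was 0.34 (SE 0.24), with an adjusted p of 0.999 without and 0.014 with the block by edgeR. The ratios within the numbers were 0.32 and 0.36, whereas the pooled value was 0.15 without WT 1, 0.075 without *Phf2* KO 2, 0.57 without WT 2 and 0.57 without *Phf2* KO 1.

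*Zfp462*, a protein of 33 fingers that acts in development and heterochromatin, had the smallest SE of the 7. It was measured at 97.4 and 103.1 CPM in WT 1 and WT 2 and at 117.7 and 120.3 CPM in *Phf2* KO 1 and *Phf2* KO 2, with no overlap. The means were 100.3 ± 4.01 and 119 ± 1.84 CPM (SD, n = 2 each). The log2 fold change of 0.25 (SE 0.078, 95% interval 0.040 to 0.45) was the only one of the 141 at an unadjusted p under 0.05 (0.028 by edgeR), and its adjusted p was 0.999 without and 0.038 with the block.

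*Zfp710* was the one gene of the 7 with replicate 1 above replicate 2. It held 41.8 and 28.4 CPM in WT 1 and WT 2 and 50.0 and 33.7 CPM in *Phf2* KO 1 and *Phf2* KO 2, with the groups overlapping. The log2 fold change was 0.25 (SE 0.28) and the ratios within the numbers 0.26 and 0.25, with an adjusted p of 0.068 under the block by edgeR. The pooled value was -0.014 without WT 2 and -0.058 without *Phf2* KO 1, and 0.57 without WT 1 and 0.51 without *Phf2* KO 2.

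*Zfp219*, a partner of Sox9 in cartilage, held 81.2 and 112.2 CPM in WT 1 and WT 2 and 104.3 and 119.4 CPM in *Phf2* KO 1 and *Phf2* KO 2. WT 2 lay above *Phf2* KO 1, and the ratios within the numbers were 0.36 and 0.089. The log2 fold change was 0.21 (SE 0.18), with an adjusted p of 0.073 under the block by edgeR. The pooled value fell to 0.0075 without WT 1 and 0.11 without *Phf2* KO 2, and was 0.45 without WT 2. The gene overlaps *Arhgef40* and *G630016D24Rik* on the other strand. The libraries marked strand with dUTP and were aligned as reverse stranded, while the strand setting of the counting step itself is not named.

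*Zfp365*, a partner of Disc1 in neurons, was the one gene lower with the block. It was measured at 20.1 and 22.9 CPM in WT 1 and WT 2 and at 17.2 and 17.6 CPM in *Phf2* KO 1 and *Phf2* KO 2, without overlap. The log2 fold change was -0.30 (SE 0.12, 95% interval -0.63 to 0.017), with an adjusted p of 0.999 without and 0.068 with the block by edgeR. At a threshold of 0.05 with the block, *Zfp579*, *Zfp57*, *Zfp692* and *Zfp462* remained, and *Zfp365*, *Zfp710* and *Zfp219* did not.

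**Figure D4:**
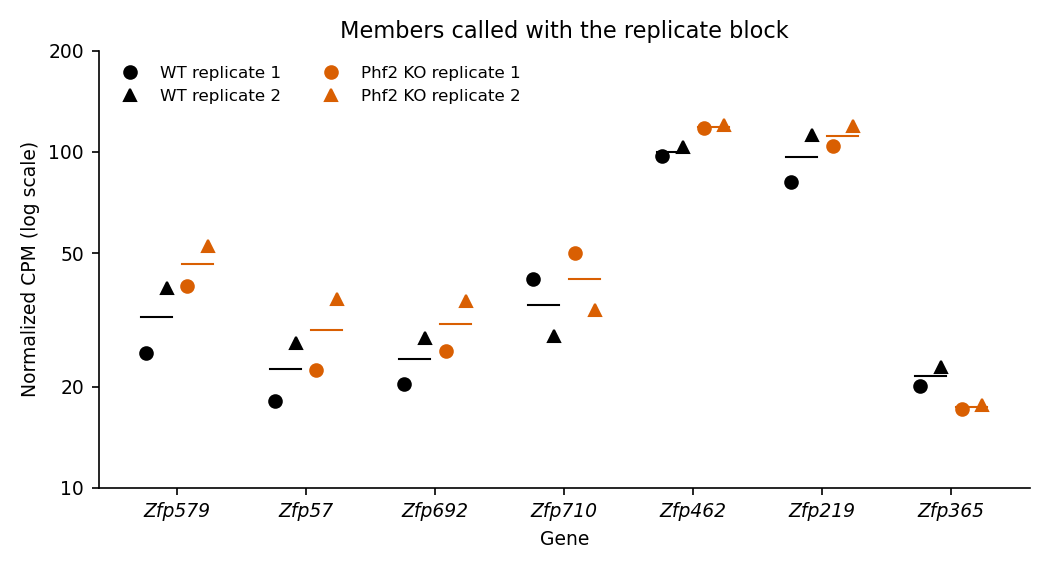
Normalized CPM (y axis, log scale) of the 7 genes called with the replicate block, 1 point per library (circles replicate 1, triangles replicate 2; black WT, orange Phf2 KO), with a bar at each group's mean. Within each number the Phf2 KO point lies above the WT point in 6 genes and below it in Zfp365, while the groups overlap in Zfp57, Zfp692, Zfp710 and Zfp219.

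Of the other genes at the ends of the ranking, none was called in either fit. At the upper end *Zfp467* had a log2 fold change of 0.26 (SE 0.17), *Zfp61* of 0.22 (SE 0.23) and *Zfp821* of 0.21 (SE 0.10). *Zfp821* was the more even of these, at 19.6 and 20.4 CPM in WT 1 and WT 2 and 22.6 and 23.8 CPM in *Phf2* KO 1 and *Phf2* KO 2. At the lower end, after *Zfp365*, came *Zfp638* at -0.27 (SE 0.18), *Zfp644*, a partner of the H3K9 methyltransferase G9a, at -0.21 (SE 0.19), and *Zfp334*, *Zfp608*, *Zfp507*, *Zfp9* and *Zfp191* at -0.19 to -0.18. *Zfp608*, the paralog of *Zfp609*, was measured at 51.1 and 52.6 CPM in WT 1 and WT 2 and at 45.7 and 45.5 CPM in *Phf2* KO 1 and *Phf2* KO 2, a difference of -0.19 (SE 0.084) without overlap of the groups. In *Zfp638* and *Zfp644*, WT 1 lay above the 3 other libraries (25.7 CPM against 17.9 to 19.1 in *Zfp638*, and 17.4 CPM against 12.8 to 13.3 in *Zfp644*).

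The genes acting on RNA and translation were all present, 9 of the 9 listed, and none was called in either fit, with a median log2 fold change of 0.038. The block called 10.97% of all genes tested, so 0 of 9 is no sign of a difference from the background. *Zfp36* encodes tristetraprolin, which binds AU-rich mRNAs and brings about their decay. It held 44.1 and 41.2 CPM in WT 1 and WT 2 and 45.5 and 48.0 CPM in *Phf2* KO 1 and *Phf2* KO 2, a log2 difference of 0.13 (SE 0.094). *Zfp598*, the ubiquitin ligase that senses collided ribosomes, stood at 0.11 (SE 0.13), and *Zfp622*, which acts in the maturation of the large ribosomal subunit, at 0.054 (SE 0.094). *Zfp106*, an RNA-binding protein and the gene with the most counts of the group, held 224.2 and 198.6 CPM in WT 1 and WT 2 and 195.7 and 186.4 CPM in *Phf2* KO 1 and *Phf2* KO 2, at -0.15 (SE 0.10). The remaining genes lay between -0.27 in *Zfp638*, which binds RNA and cytidine-rich DNA, and 0.14 in *Zfp326*, which links splicing to RNA polymerase; among them were *Zfp346* (double-stranded RNA binding), *Zfp207* (spindle and splicing) and *Zfp830*.

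Of 10 genes listed for mesenchymal and developmental roles, 7 were above the limit, while *Zfp423* and *Zfp536* were under it and *Zfp469* was not in the table. Their median log2 fold change was 0.11, with 1 of 7 called higher with the block (*Zfp462*), where 5.77% of all genes were, and 0 of 7 without. With so few genes, that count is no sign of a difference from the background. *Zfp521*, which holds back the fat cell lineage, was among the most expressed, at 179 and 202.5 CPM in WT 1 and WT 2 and 164.8 and 189.5 CPM in *Phf2* KO 1 and *Phf2* KO 2, which overlapped (-0.11, SE 0.12). *Zfp503*, of the same NET family as *Zfp703*, held 105.5 and 125.1 CPM in WT 1 and WT 2 and 129.4 and 132.7 CPM in *Phf2* KO 1 and *Phf2* KO 2, without overlap (0.19, SE 0.11). *Zfp467*, which favours fat over bone cells, held 18.7 and 17.1 CPM in WT 1 and WT 2 and 24.4 and 18.5 CPM in *Phf2* KO 1 and *Phf2* KO 2, with *Phf2* KO 1 above the other 3 libraries. *Zfp217*, a repressor amplified in tumours, gave 0.0027 (SE 0.16) and *Zfp385a*, a cofactor of p53, -0.043 (SE 0.12).

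All 12 genes listed for roles at promoters and in chromatin were above the limit. None was called in either fit, while the block called 10.97% of all genes tested, so the 0 does not set these genes apart. Their median was -0.048, and they spanned -0.13 in *Zfp407* to 0.18 in *Zfp335*, a promoter-binding regulator needed in neural progenitors. *Zfp609*, which binds the cohesin loader Nipbl, held 87.2 and 84.8 CPM in WT 1 and WT 2 and 85.0 and 78.4 CPM in *Phf2* KO 1 and *Phf2* KO 2, with overlap of the groups (-0.074, SE 0.083, 95% interval -0.29 to 0.14). *Zfp143*, which binds promoters and lies at the anchors of chromatin loops, held 12.5 and 14.9 CPM in WT 1 and WT 2 and 13.2 and 12.4 CPM in *Phf2* KO 1 and *Phf2* KO 2 (-0.098, SE 0.15). *Zfp148* at -0.13 (SE 0.091) and *Zfp384* at -0.068 (SE 0.089) were the 2 genes of this list with both *Phf2* KO values below WT, and *Zfp592* at 0.013 (SE 0.073) the 1 gene with both above. Over all genes tested, both lay below WT in 18% and above it in 15.5%. The pluripotency regulator *Zfp281*, *Zfp687* (a partner of *Zfp592*), *Zfp292*, *Zfp318* and *Zfp91*, a ubiquitin ligase, lay between -0.097 and 0.083.

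**Figure D5:**
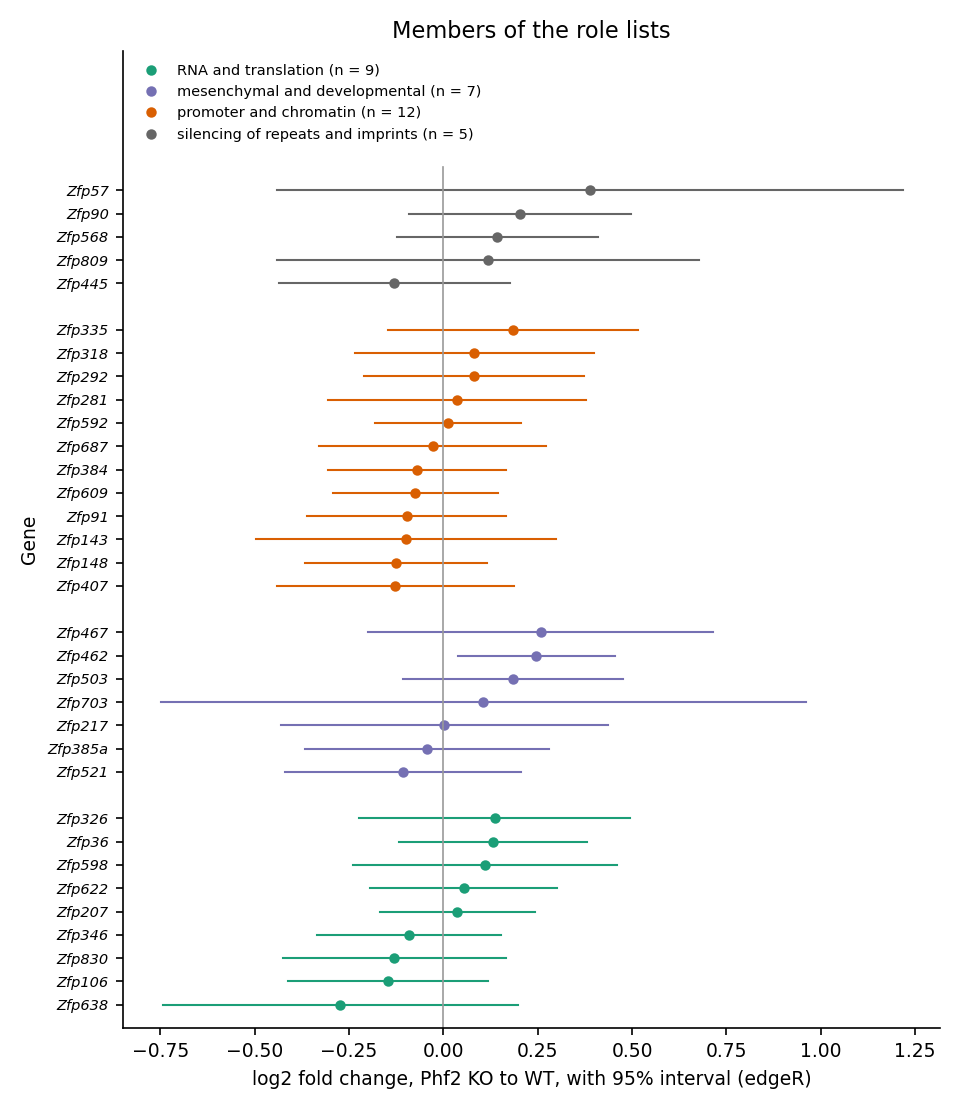
log2 fold change of Phf2 KO to WT (x axis, points) with its 95% interval (lines) from edgeR without a block, for the 33 numbered Zfp genes of the 4 role lists (y axis, coloured by list). All intervals but that of Zfp462 include 0, and those of Zfp57 and Zfp703 are the widest.

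Of 9 genes listed for silencing of repeats and imprints, 5 were above the limit, and *Zfp932*, *Zfp819*, *Zfp961* and *Zfp708* were under it. Their median was 0.14, with 1 of 5 called higher with the block (*Zfp57*), again beside 5.77% of all genes, and 0 of 5 without. *Zfp445*, which acts beside Zfp57 at imprinted regions, held 37.0 and 33.0 CPM in WT 1 and WT 2 and 30.3 and 33.7 CPM in *Phf2* KO 1 and *Phf2* KO 2, and went the other way from *Zfp57* in the pooled fit (-0.13, SE 0.12). *Zfp568*, which represses a placental transcript of *Igf2*, held 25.2 and 27.1 CPM in WT 1 and WT 2 and 28.4 and 29.5 CPM in *Phf2* KO 1 and *Phf2* KO 2 (0.14, SE 0.10), without overlap. *Zfp809*, which silences retroviruses through their primer binding site, stood at 0.12 (SE 0.21), and *Zfp90* at 0.20 (SE 0.11).

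The genes with a KRAB match had small differences. Their 27 log2 fold changes ran from -0.17 in *Zfp866* to 0.20 in *Zfp90*, with a median of 0.021. By edgeR 0 of 27 were called with or without the block, and 0 had an unadjusted p under 0.05 without it, while the block called 10.97% of all genes and 1.54% higher and 2.67% lower passed the unadjusted limit. Among 27 genes, shares of this size give few calls, so the 0 does not set the genes with a match apart. The 112 genes without a KRAB match had a median of 0.014, and the 7 genes called with the block were all among them. These include *Zfp57*, which acts with Trim28, so the 0 of 27 does not show that no KRAB protein gene was called. Whether the classes differ was not tested. By place, the median was 0.0075 in the 71 genes with a neighbour of the family within 500000 bases, 0.025 in the 68 without, and -0.0079 in the 38 genes on chromosome 7.

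Of the partners through which KRAB proteins work, none was called. The 19 corepressor genes tested (Trim28, Setdb1, the HP1 proteins, histone deacetylases, the HUSH complex and others) had a median log2 fold change of -0.0053, and 0 of 19 were called with or without the block. Over all genes tested the block called 10.97%, a share that gives few calls among 19, so the 0 does not set these genes apart. *Trim28* held 271.3 and 304.3 CPM in WT 1 and WT 2 and 264.8 and 282.4 CPM in *Phf2* KO 1 and *Phf2* KO 2 (-0.073, SE 0.10). *Setdb1* held 58.6 and 54.3 CPM in WT 1 and WT 2 and 58.6 and 55.9 CPM in *Phf2* KO 1 and *Phf2* KO 2 (0.021, SE 0.089). The range of the list was -0.20 in *Hdac2* to 0.19 in *Morc3*.

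The related families are given beside these genes for comparison. The 165 tested numbered *Zfp* genes under the limit had a median of -0.010, with 0 called higher and 3 lower with the block (*Zfp804a*, *Zfp385b* and *Zfp575*, named after their values were seen). The 42 *Zbtb*, *Zscan* and *Zkscan* genes with the same minimum count had a median of 0.033 and 1 call with the block, *Zbtb20*. The 11 *Klf* genes, short C2H2 proteins that respond to growth signals, had a median of -0.059 and 3 calls with the block, *Klf10* and *Klf6* lower and *Klf15* higher, or 27.3% against 4.96% of the numbered *Zfp* genes, 10.97% of all genes tested and 12.4% of those with the same minimum count. The difference between the families was not tested.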

How the data were processed

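RNA from 2 WT and 2 *Phf2* KO MEF libraries was sequenced as 50 bp single reads. Trim Galore (trimming), bowtie2 (rRNA removal) and STAR (reverse stranded, mm9) were run by the authors, who deposited raw counts per gene from featureCounts, as whole numbers without normalization. Versions and annotation release are not given in the sources used here. A table of the authors' own DESeq2 comparison (fold changes and p-values) was not used. No per-sample column was without a sample.

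Counts were fitted in R 4.3.3 with edgeR 4.0.16 (filterByExpr, TMM, glmQLFit and glmQLFTest, genotype alone), with Benjamini-Hochberg adjustment over 13668 genes and calls at an adjusted p under 0.1. SEs are the log2 fold change over the root of F. DESeq2 1.42.0, limma 3.58.1 (voom), other scalings and filters, each library left out and the replicate number as a block were alternatives, and the fits with and without the block were tested on simulated counts. Voom with the block, and the block at a threshold of 0.05, were added after the data were seen. CPM are TMM-normalized. The total counts, 21094743 to 26094268, put the level of 3 counts between 0.11 and 0.14 CPM, for counting error only.

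Named genes were the 8 highest and 8 lowest log2 fold changes, the 5 most counted, the role lists, those called with the block, and 3 on either side of the limit. The members and lists were chosen with earlier results of these data known. Positions, exon lengths and translations came from GENCODE vM1 on NCBIM37 (mm9), with 138 members matched by symbol and 1 through a synonym. Fingers and KRAB boxes were sought in these translations because no protein table was used. *Fam208a* is *Tasor*. Features and figures were made with Matplotlib 3.10.9, pandas 2.3.3 and NumPy 2.4.6 under Python 3.11.15.

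The labels and methods do not say that a replicate number marks an embryo or day shared by both groups. The sex genes and the correlation of the replicate differences between the groups (r of 0.77 over all genes) show that libraries of the same number are alike, with only 2 pairs.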

Additional observations from a re-analysis of the deposited data

How the results depend on the processing

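The numbers of *Zfp* genes called higher and lower were 0 and 0 without a block, also under DESeq2, limma-voom, other scalings and other filters. Over all 15991 genes, DESeq2 without a block called 10 higher and 54 lower. With the replicate block as pairing, edgeR called 6 higher and 1 lower, beside 789 and 711 of all 13668 genes. Limma-voom called 6 and 1, beside 725 and 646 of 13668. DESeq2 called 1 higher, beside 183 higher and 119 lower of 7550. At a threshold of 0.05 edgeR called 4 higher, and the share over all genes at that threshold is not given here. The cause of the larger numbers with the block was not tested. The common dispersion was 0.045 without and 0.0036 with the block. The median of 0.014 was 0.021 under DESeq2, 0.022 with RLE size factors, 0.0051 with library size alone, 0.00998 with all genes of at least 1 count, -0.0038 with a limit of 100 and 0.036 with a limit of 500, and -0.022 to 0.035 with 1 library left out, below 0 without WT 1 and without *Phf2* KO 2. *Zfp217*, at 0.0027, turned to -0.0026 under limma-voom, -0.012 with library size alone, -0.0020 with all genes, -0.0012 with a filter at 1 CPM, -0.00052 with the block and -0.00021 with the block in limma-voom. The block changed no other direction among the 51 named genes. With 1 library left out the sign turned in these named genes, none of them called without the block, over the ranges *Zfp644* -0.43 to 0.043, *Zfp57* -0.0038 to 0.69, *Zfp710* -0.058 to 0.57, *Zfp61* -0.078 to 0.47, *Zfp651* -0.046 to 0.39, *Zfp598* -0.016 to 0.25, *Zfp622* -0.0081 to 0.12, *Zfp207* -0.017 to 0.089, *Zfp703* -0.26 to 0.58, *Zfp217* -0.18 to 0.16, *Zfp385a* -0.20 to 0.093, *Zfp143* -0.21 to 0.018, *Zfp281* -0.058 to 0.12, *Zfp592* -0.0092 to 0.031, *Zfp687* -0.10 to 0.045, *Zfp91* -0.20 to 0.0095, *Zfp318* -0.020 to 0.18, *Zfp809* -0.17 to 0.35, *Zfp28* -0.0018 to 0.24 and *Zfp280d* -0.071 to 0.21.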
